A study of Mus musculus with 25 samples.

Results

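Anti-CTLA-4 antibody leaves some tumours growing, and the comparison described here asks which transcripts differed between such tumours and tumours given an isotype antibody. It covers 11 of the 25 melanomas sequenced, 6 non-responders and 5 controls, chosen by their labelled treatment and outcome and by no transcript level. All were implants of the mouse melanoma line B2905, also named M4, in C57BL/6 mice. The 40 implanted mice were split into groups at an average tumour size of 75 mm3. The 6 non-responders came from the arm of 30 mice that received anti-CTLA-4, and their tumours had gone on enlarging when outcome was scored 10 to 11 days after the last dose. The 5 controls received IgG2b, an antibody of the same isotype. Both antibodies were dosed at 10 mg/kg, 2 times a week for 2 weeks. The other 14 sequenced tumours had the same anti-CTLA-4 treatment and were labelled stable (6) or responder (8). The arm of 30 mice thus gave 20 sequenced tumours. Non-responders were picked by growth under treatment and the controls were not, so the antibody's effect and this choice cannot be told apart. One cell line in 1 host strain was used, and the sources used here give neither the age nor the sex of the mice.

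CTLA-4 is a receptor on activated and regulatory T cells that binds CD80 and CD86 more tightly than the activating receptor CD28 does, and so limits T cell priming. Antibodies against it release that limit, and, depending on their isotype, can also deplete regulatory T cells through Fc receptors on myeloid cells. In melanoma, T cells that recognise tumour or pigment cell antigens release interferon gamma, which raises antigen presentation and T cell attracting chemokines in the cells around them.

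The libraries held 25.5 ± 6.22 M counts in controls (SD, n = 5, range 17.7 to 34.3) and 20.2 ± 4.97 M in non-responders (SD, n = 6, range 10.9 to 25.4), with non-responder 1 the shallowest. The share of counts in protein-coding genes was 87.4 ± 0.842% in controls (SD, n = 5) and 86.1 ± 1.97% in non-responders (SD, n = 6), a difference within the spread (two-sided exact permutation p = 0.182 over 462 splits, adjusted p = 0.665 over 4 classes of RNA). The sample descriptions open with a number, 1 to 5 for controls and 6 to 11 for non-responders, and the labels do not say what it counts. The melanocyte lineage factor Sox10 was present in every tumour, at 321 to 391 CPM (counts per M, after TMM scaling) in controls and 242 to 337 CPM in non-responders (log2 fold change -0.30, edgeR adjusted p = 0.292). Bulk RNA was measured throughout, so a change in the number of cells of a type and a change in RNA per cell cannot be told apart.

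Non-responders differed widely from controls, mostly upward. Of 18031 genes tested with edgeR's quasi-likelihood F test, 2500 (13.9%) passed an adjusted p of 0.05 and are said here to be called, with 1907 (10.6%) higher and 593 (3.29%) lower in non-responders. The median log2 fold change was 1.39 over the genes called higher and -0.66 over those called lower, against 0.04 over all genes tested. A log2 fold change over 1 was reached by 1379 of the genes called higher, and one under -1 by 151 of those called lower. When the test required at least a 2-fold change, 203 higher (1.13%) and 7 lower (0.0388%) genes were called. Leaving out 1 tumour moved the total from 2500 to 1570 without control 4, 1593 without control 1, 1634 without non-responder 4 and 4237 without non-responder 3. The lower genes depended on single tumours more, with 254 called without non-responder 4 and 1596 without non-responder 3. The lower count was also 266 without control 1, 273 without control 4, 268 without non-responder 5 and 343 without non-responder 6.

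The 6 tumours did not share the change evenly. All 6 lay above every control in 481 of the genes tested (2.67%) and below every control in 254 (1.41%). Among genes called higher, 371 had all 6 tumours above every control, 972 had 5, 502 had 4 and 62 had 3 or fewer. Among genes called lower, 152 had all 6 below every control, 325 had 5, 87 had 4 and 29 had 3 or fewer. In 833 of the 972 higher genes and 249 of the 325 lower genes with 5 tumours outside the control range, the tumour left inside it was non-responder 3.

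Non-responder 3 therefore stood nearest to the controls. It was above every control in 28.1% of the genes called higher, with a median log2 difference from the control mean of 0.25. Non-responder 2 came next, with 73.1% and a median of 0.76, followed by non-responder 1 with 92% and 1.18. Non-responders 4, 5 and 6 were above every control in 99.2%, 98.3% and 95.3% of these genes, with medians of 1.62, 1.52 and 1.76. The order was similar for genes called lower, where the share below every control was 40.6% in non-responder 3, 82.3% in non-responder 2, 84.5% in non-responder 1 and 96.1% to 98.5% in the other 3. These shares describe genes that the same tumours helped to call. The median SD of log2 CPM was 0.72 over non-responders and 0.39 over controls for genes called higher, and 0.39 and 0.24 over all genes tested.

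**Figure D1:**
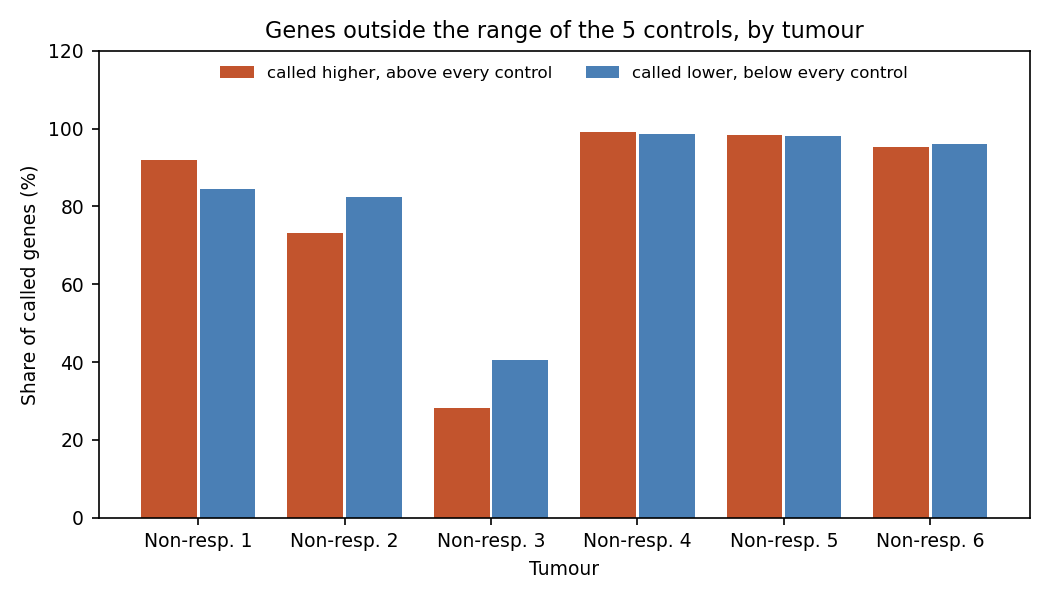
Share of the 1907 genes called higher that lay above all 5 controls (orange) and of the 593 genes called lower that lay below all 5 controls (blue), in percent, for each of the 6 non-responders. Non-responder 3 reached 28.1% and 40.6%, and non-responders 4 to 6 stayed above 95% in both.

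The genes were then read in 38 lists by function or cell type. Of their 472 genes, 460 were tested, 218 were called higher and 9 lower, and 48 had all 6 non-responders above every control. Over all genes tested, 10.6% were called higher and 3.29% lower, and 2.67% had all 6 above every control. With at least a 2-fold change required, 54 list genes were called higher. Control 5 had the highest median of the controls in most immune lists, at 1.00 above the control mean on the log2 scale for the T cell receptor list and 1.07 for MHC class II. Non-responder 3 stayed under control 5 in both, at 0.84 and 0.75.

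A fit of the 11 compared tumours alone called fewer members in many lists. Counts called higher moved from 10 to 6 for inhibitory checkpoints, 7 to 4 for TNF family costimulation, 6 to 3 for T cell transcription factors, 14 to 5 for type I interferon genes and 11 to 6 for MHC class I. They moved from 11 to 6 for macrophage genes, 2 to 0 for alternatively activated macrophage genes, 7 to 3 for monocyte attracting factors, 5 to 3 for Fc gamma receptors and 11 to 7 for complement. They also moved from 5 to 3 for B and plasma cell genes, 4 to 2 for suppressive enzymes, 3 to 1 for neural crest genes, 2 to 1 for neutrophil genes and 2 to 0 for eosinophil genes. Further moves were from 11 to 8 for MHC class II, 14 to 11 for regulatory T cell genes and 8 to 6 for death ligands and receptors. Hypoxia genes called lower moved from 3 to 1, while all 16 T cell receptor genes and 24 of 29 interferon gamma response genes were called higher. Among genes described below, Aire, Ccl22, Cox8b, Fasl, Mitf, Msr1, Oas3, Pdcd1 and Psmb8 lost their calls in this fit. These genes kept their calls without each tumour in turn.

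**Figure D2:**
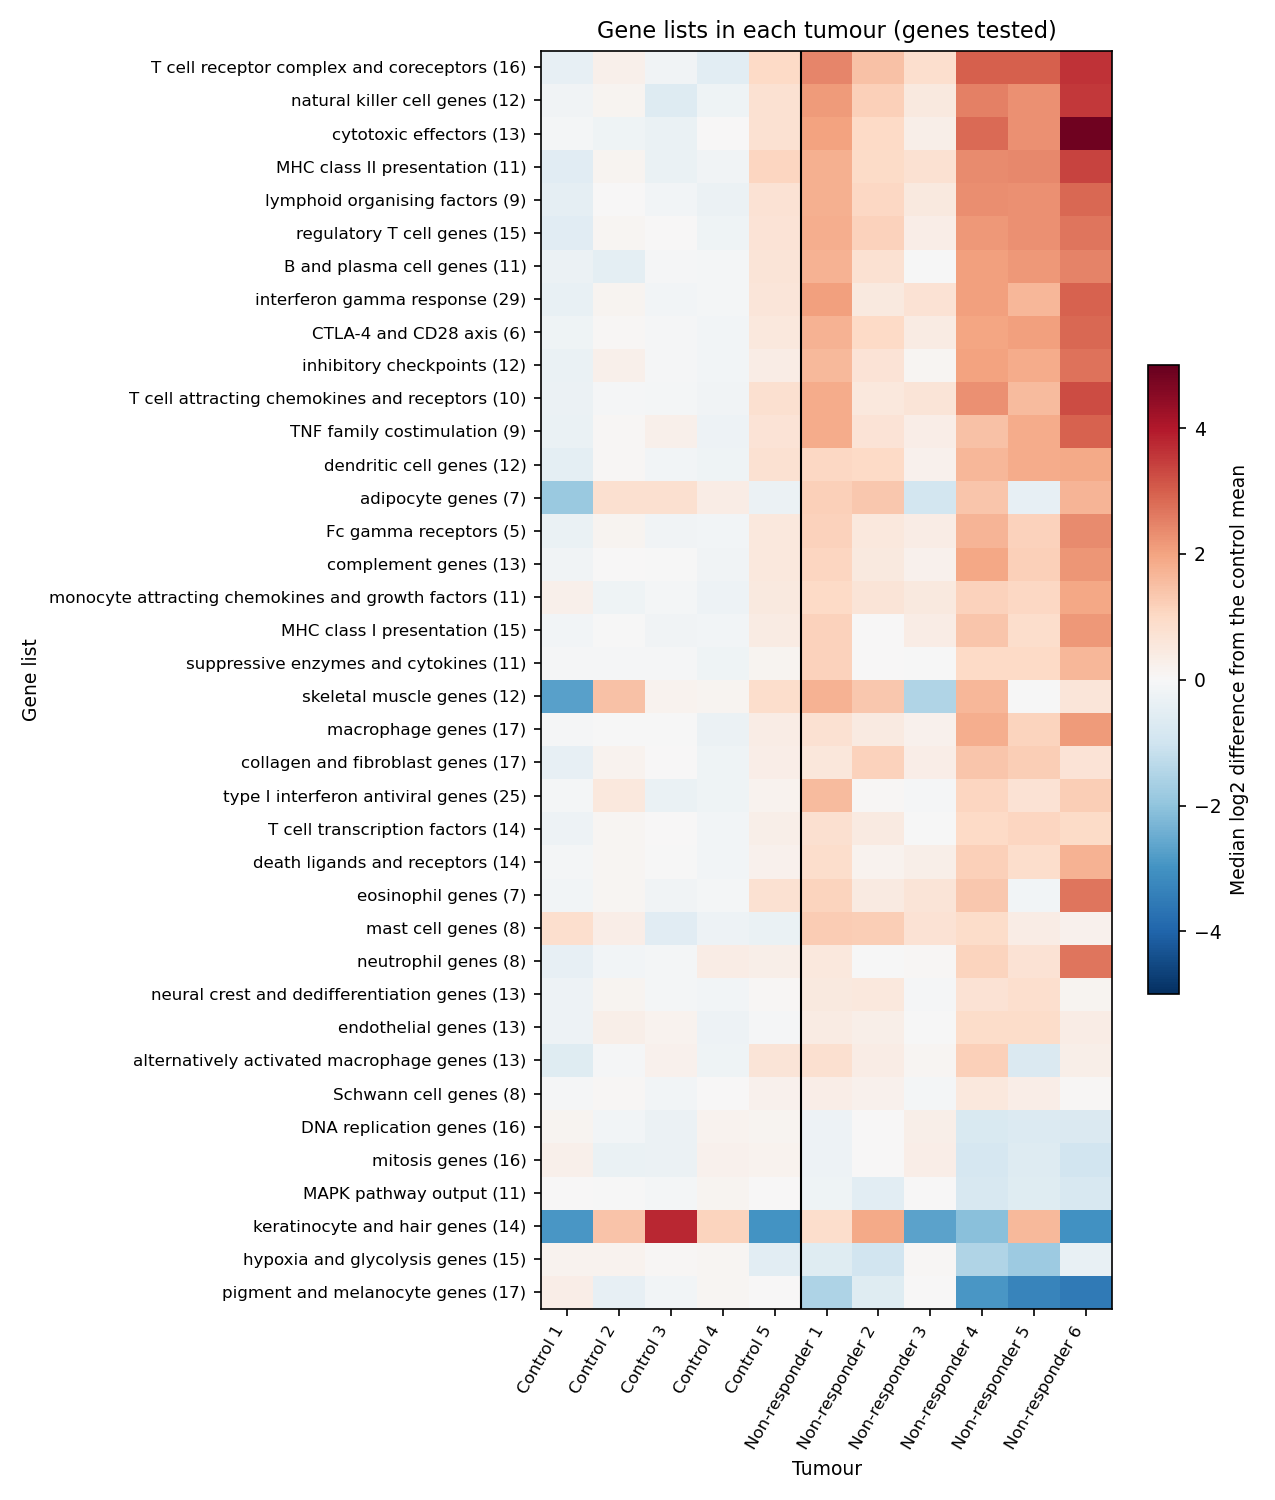
Median log2 difference from the control mean over the tested genes of each list (rows, number of genes in brackets) in each of the 11 tumours (columns, controls left of the line), with red above and blue below the control mean. The T cell receptor, cytotoxic, natural killer, MHC and interferon lists were redder in non-responders 1, 4, 5 and 6 than in 2 and 3, the pigment list was dark blue in non-responders 4 to 6, and the keratin, muscle and adipocyte lists varied in both groups.

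**Figure D3:**
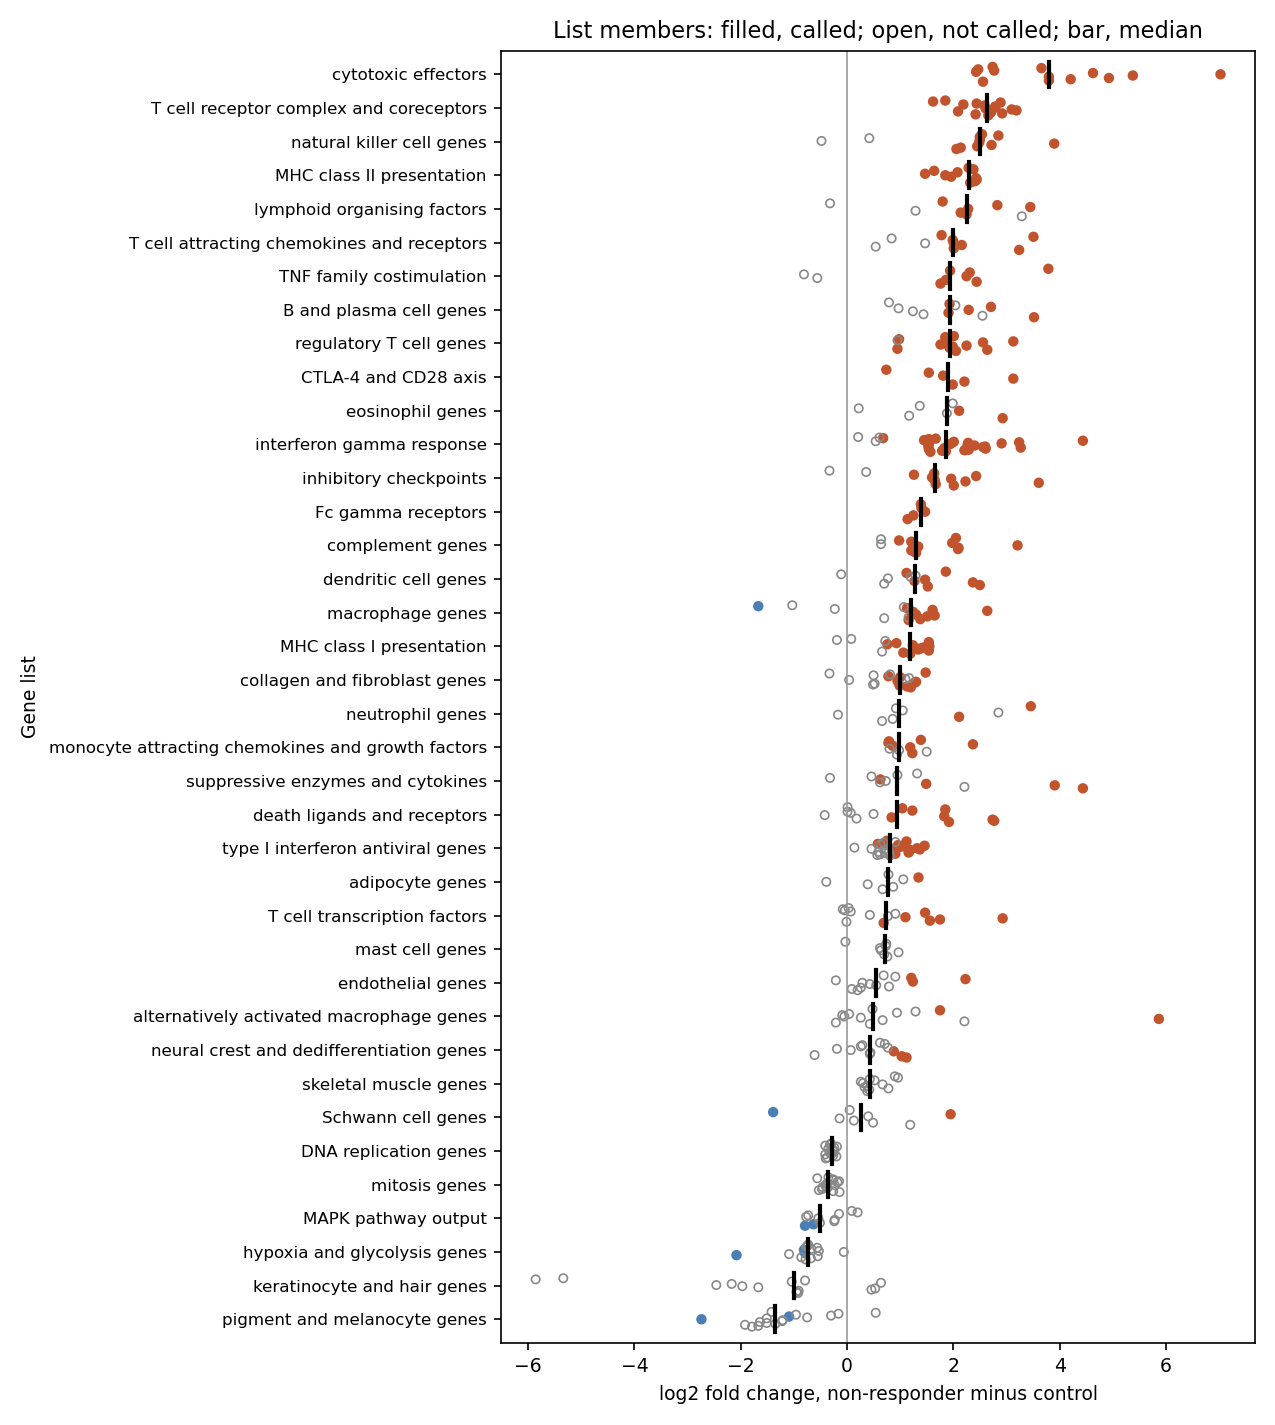
Log2 fold change of each list member (points, x axis), non-responder minus control, by list (y axis), with orange for genes called higher, blue for genes called lower, open points for genes not called and a bar at the list median. Every cytotoxic effector lay right of 2, and all replication and mitosis genes were open points left of 0.

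The target of the antibody and its costimulatory relatives were higher in non-responders. All 6 genes of the CTLA-4 and CD28 axis rose, with a median log2 fold change of 1.90, and 5 of the 6 were higher still in stable tumours. Ctla4 (chr1:60887000-60915832 in GRCm38) was at 0.967, 1.25, 0.704, 0.877 and 2.74 CPM in controls 1 to 5 and at 3.98, 3.97, 1.63, 4.53, 6.24 and 10.4 CPM in non-responders 1 to 6. Non-responder 3 lay inside the control range, below control 5, and the other 5 exceeded every control. The log2 fold change of Ctla4 was 1.99 (SE 0.39, edgeR adjusted p = 0.00132), and the call held without each tumour in turn but not when at least a 2-fold change was required.

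Icos, a costimulatory receptor induced on activated T cells, separated the groups fully. It was at 0.633, 1.11, 0.978, 0.904 and 1.35 CPM in controls and at 7.87, 4.1, 1.98, 8.62, 11.6 and 17.9 CPM in non-responders. Its log2 fold change was 3.13 (SE 0.40, adjusted p = 0.000303). Cd28, the activating receptor that competes with CTLA-4, rose by 2.21 (SE 0.42, adjusted p = 0.00118) and Cd80, a ligand of both, by 1.81 (SE 0.31, adjusted p = 0.000653). Non-responder 3 lay within the control range for both.

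Regulatory T cell genes were higher in non-responders, with 14 of 15 called higher, 0 lower and a median of 1.93. The list shares Ctla4 and Icos with the CTLA-4 and CD28 axis, and activated T cells also express both. The 16 T cell receptor genes had a larger median, 2.63, so a change particular to regulatory T cells cannot be read from this list. Foxp3 (chrX:7573644-7595245), the lineage factor of these cells, was at 0.267, 1.11, 0.861, 0.794 and 1.81 CPM in controls. The non-responders had 4.22, 3.11, 0.816, 4.41, 8.24 and 3.1 CPM, so that 5 lay above every control and non-responder 3 lay among them. The log2 fold change was 2.05 (SE 0.42, adjusted p = 0.00187), and limma on the deposited RPKM values did not call it in any of 3 settings. Il2ra, the high-affinity chain of the interleukin 2 receptor, rose by 2.64, the chemokine receptor Ccr8 by 2.56 and the costimulatory receptor Tnfrsf18 (GITR) by 2.25, the last with all 6 tumours above every control.

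Transcripts of the T cell receptor complex rose as a whole list. All 16 genes were called higher, in the main test and without each tumour in turn, with a median log2 fold change of 2.63. Cd8a, a chain of the coreceptor of cytotoxic T cells, was at 1.07, 2.47, 2.5, 1.01 and 5.43 CPM in controls and 14.1, 6.44, 4.98, 30.9, 28.8 and 48.8 CPM in non-responders (log2 fold change 3.19, SE 0.55, adjusted p = 0.000627). Non-responder 3 was again the only tumour within the control range. Its partner chain Cd8b1 rose by 3.10. Cd3g, a signalling chain of the receptor, rose by 2.92, and all 6 non-responders exceeded every control.

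Of 12 inhibitory checkpoint genes tested, 10 were called higher and 0 lower, with a median of 1.66, and in none did all 6 tumours exceed every control. Pdcd1lg2, which encodes the PD-1 ligand PD-L2, had the largest log2 fold change of these at 3.61 (SE 0.66, adjusted p = 0.000919), and 4 tumours exceeded every control. Cd160 rose by 2.43, Lag3 by 2.23 and Pdcd1, the gene of PD-1 itself, by 2.01. Pdcd1 lost its call in the fit of the 11 compared tumours alone. The TNF family costimulation list had 7 of 9 tested genes called higher, among them Cd27 at 2.31. Tnfsf4 (OX40 ligand, 2.44, adjusted p = 0.0156) lost the call without control 1 and without non-responder 6, where the log2 fold change was 1.47. Cd40lg, which licenses antigen-presenting cells, had 3 counts over all controls and 53 over all non-responders. Its level in non-responders was 17.8 times the pooled control level (95% exact Poisson interval 6.1 to 86.4, covering counting error only). All 3 control counts lay in control 3, and without that tumour the level was at least 14.5-fold higher than a floor of 3 counts pooled over the other 4 controls (fitted log2 fold change 5.95, against 3.79 with it).

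Among 14 T cell transcription factors tested, 6 were called higher and 0 lower, or 3 without non-responder 6 and 8 without non-responder 3. Tbx21, the factor of type 1 helper and effector cells, rose by 2.93 (SE 0.44, adjusted p = 0.000436). Tox and Batf, both expressed in chronically stimulated T cells, rose by 1.56 and 1.47, each with 5 tumours above every control. Eomes (1.75, adjusted p = 0.0204) lost the call without controls 1 or 4 or non-responders 4 or 6 (adjusted p up to 0.065).

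Cytotoxic effectors had the largest median of the 38 lists, at 3.80, with 13 of 13 genes called higher. The count fell to 8 without non-responder 6, to 10 without control 1 or control 4 to 8 in limma on log2(RPKM + 1) and to 6 in a fit of the 11 compared tumours alone. Gzmb (chr14:56258838-56262260), the main killing protease of T and NK cells, was at 1.37, 1.33, 1.21, 1.53 and 2.74 CPM in controls and 16.5, 4.41, 4.34, 21, 10.5 and 79.2 CPM in non-responders. All 6 tumours lay above every control, although their values spanned a wide range with non-responder 6 far above the rest. The log2 fold change was 3.80 (SE 0.66, adjusted p = 0.000658).

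The granzymes next to Gzmb on chromosome 14 differed in how far they rested on that 1 tumour. Gzmc was at 0.509 to 2.22 CPM in controls and 8.84, 4.92, 4.34, 32.7, 10 and 105 CPM in non-responders, and all 6 lay above every control (log2 fold change 4.21, SE 0.80, adjusted p = 0.00118). Gzmd was at 11.3 CPM in non-responder 6 and at most 0.566 CPM in the other 5, and its log2 fold change of 4.93 (adjusted p = 0.0135) became 1.59 without non-responder 6, when it was no longer called. Gzmf was at 8.33 CPM in non-responder 6 and at most 0.0432 CPM in the other 5. Its log2 fold change of 5.38 (adjusted p = 0.0279) was 0.30 without that tumour, and the call was also lost without each of the 5 controls.

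Gzmg had 0 counts in all controls, and 124 of its 125 counts in non-responders came from non-responder 6. Its level over the 6 tumours was at least 36.8-fold higher than a floor of 3 counts pooled over the controls, and it was no longer called once non-responder 6 was left out, which left 1 count, or any of controls 1 to 4. These neighbouring genes are similar, so the share of reads given to each is uncertain. Gzmk, on chromosome 13, was at 0 to 0.155 CPM in controls and 0.892, 0.259, 0.344, 2.79, 0.999 and 4.47 CPM in non-responders. It rose by 4.63 (SE 0.87, adjusted p = 0.00102), with no overlap between the groups. Ifng, named after its values were seen, was at 0.0333 to 0.517 CPM in controls and 3.25, 0.475, 0.602, 3.36, 1.25 and 8.26 CPM in non-responders (log2 fold change 3.66, adjusted p = 0.000793), and only non-responder 2 overlapped the controls. Tnf and Fasl, ligands of death receptors, rose by 2.74 and 2.77, with 6 and 4 tumours above every control.

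Natural killer cell genes were higher in 10 of 12, with a median of 2.49, and the count stayed at 10 without each tumour in turn. Klrc1, an NKG2 family lectin receptor, was at 0.467, 1.4, 0.704, 0.712 and 0.983 CPM in controls and 8.28, 2.33, 1.85, 13.2, 12.9 and 37.7 CPM in non-responders. Every non-responder was above every control (log2 fold change 3.90, SE 0.60, adjusted p = 0.000462). Its partner Klrd1 rose by 2.72, the chemokine Xcl1 by 2.85 and Il2rb, a receptor chain for interleukins 2 and 15, by 2.54, each with 5 tumours above every control. Activated T cells also express these 4 genes.

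In the interferon gamma response list, 26 of 29 genes were called higher and 0 lower, with a median of 1.86, and in 9 genes all 6 tumours exceeded every control. The count was 26 or 27 without each tumour in turn. Genes that interferon gamma induces often carry gamma-activated sites or interferon-stimulated response elements near their start. The 250 bases before the RefSeq start (GRCm38.p6) were therefore searched for TTCNNNGAA, which reads the same on both strands, and for GAAANNGAAA on both strands. The first occurred in 7.02% and the second in 2.98% of 32851 such windows of all genes, and both in 0.332%. Of 24 windows for 21 of the 29 listed genes, 9 held the first, 11 the second and 6 both.

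The 120 bases before the start are shown for the 5 genes in which both sets of letters lay within them, because these members carry both in a short stretch. Capitals mark the matches: Gbp7 is at chr3:142530216-142530335 (plus strand), Igtp at chr11:58199436-58199555 (plus), Irgm2 at chr11:58214857-58214976 (plus), Tgtp1 at chr11:48992247-48992366 (minus) and Tgtp2 at chr11:49064213-49064332 (minus).
Gbp7: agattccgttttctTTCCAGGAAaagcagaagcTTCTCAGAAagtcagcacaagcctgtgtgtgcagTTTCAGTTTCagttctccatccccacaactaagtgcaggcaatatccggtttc
Igtp: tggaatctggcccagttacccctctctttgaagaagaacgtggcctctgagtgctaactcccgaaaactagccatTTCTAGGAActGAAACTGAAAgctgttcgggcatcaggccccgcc
Irgm2: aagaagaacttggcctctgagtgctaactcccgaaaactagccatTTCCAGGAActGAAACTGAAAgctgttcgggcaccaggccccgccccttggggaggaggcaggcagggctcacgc
Tgtp1: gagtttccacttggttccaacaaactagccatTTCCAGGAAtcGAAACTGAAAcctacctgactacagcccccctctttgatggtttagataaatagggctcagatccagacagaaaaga
Tgtp2: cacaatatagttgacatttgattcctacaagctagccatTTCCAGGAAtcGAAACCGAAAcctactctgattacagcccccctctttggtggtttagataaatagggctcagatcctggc

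In Igtp, Irgm2, Tgtp1 and Tgtp2 the matches stood side by side with 2 bases between them, and in Gbp7 they lay apart. The stretches of Igtp and Irgm2 resemble each other around the matches, as do those of Tgtp1 and Tgtp2, so these are not independent cases. A match describes letters only, and no binding was measured. All 5 genes encode GTPases that act against intracellular microbes, and all 5 rose, by 1.53 (Gbp7), 2.27 (Igtp), 1.95 (Irgm2), 2.91 (Tgtp1) and 2.28 (Tgtp2). All 29 genes of the list had positive log2 fold changes, with a median of 1.86, so these rises say nothing about the letters. Tgtp2 was at 42.2, 84.8, 65, 62.8 and 103 CPM in controls and 380, 102, 144, 435, 294 and 726 CPM in non-responders, with non-responder 2 the only one inside the control range. Tgtp1 and Tgtp2 are near copies, and the annotated spans of Igtp and Irgm2 overlap, so the share of reads given to each is uncertain.

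Cxcl9, a chemokine for CXCR3-bearing T cells, was the clearest chemokine change, at 10.9, 31.4, 25.4, 23.5 and 49.8 CPM in controls and 282, 69, 87.6, 332, 258 and 563 CPM in non-responders. No value overlapped, and the log2 fold change was 3.24 (SE 0.46, adjusted p = 0.000436). Gbp4 and Gbp10, guanylate-binding proteins, rose by 3.27 and 3.81 with all 6 tumours above every control. Ubd, an ubiquitin-like modifier induced by interferon gamma and TNF, rose by 4.42 (SE 0.76, adjusted p = 0.000637), from 0.1 to 0.931 CPM in controls to 14.7, 0.734, 2.54, 5.22, 2.75 and 29.6 CPM. Ido1, a tryptophan-degrading enzyme, had 1 count in controls and 39 in non-responders, 28 of them in non-responder 6. That is a ratio of 38.8 (95% exact Poisson interval 6.96 to 1531), or 16.9 (3.03 to 666) without non-responder 6. The 1 control count lay in control 4, and without that tumour the level was at least 9.51-fold higher than the same pooled floor of 3 counts.

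Of 10 T cell attracting chemokines and receptors, 7 were called higher, with a median of 1.99. Cxcr6, a receptor of tissue-resident effector cells, rose by 3.51 with all 6 tumours above every control. Its ligand Cxcl16 rose by 2.16 and Cxcl10 by 2.01, with 5 tumours outside the control range in each.

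Type I interferon antiviral genes moved less, with 14 of 25 called higher, 0 lower and a median of 0.81. In this list the most shifted tumour was non-responder 1 (median 1.58), while non-responders 2 and 3, at 0.05 and -0.05, stayed within the controls' range of -0.34 to 0.52. The count was 8 without control 4, 9 without control 1, non-responder 4 or non-responder 6, and 19 without non-responder 3. Ifi44, Oas3 and Oasl2, an antiviral protein and 2 oligoadenylate synthetase family members, rose by 1.46, 1.37 and 1.32, each with 4 tumours above every control. Oas2 (1.19, adjusted p = 0.0491) lost the call without controls 1, 3, 4 or 5 or non-responders 1, 4, 5 or 6 (adjusted p up to 0.128).

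Antigen presentation genes were higher for both MHC classes. In class I, 11 of 15 genes were called higher (8 without non-responder 6) with a median of 1.19. The immunoproteasome subunits Psmb9 and Psmb8 rose by 1.55 and 1.45, the peptide transporter Tap1 by 1.54 and the class I transactivator Nlrc5 by 1.54. In class II, all 11 genes were called higher with a median of 2.29. The count was 10 without non-responder 6 and 8 in the fit of the 11 compared tumours alone. H2-Ab1, a class II beta chain, was at 98.8, 167, 111, 123 and 315 CPM in controls and 511, 341, 263, 1128, 823 and 2148 CPM in non-responders (log2 fold change 2.41, SE 0.46, adjusted p = 0.00117), with non-responder 3 below control 5. H2-Eb1 and the invariant chain Cd74 rose by 2.44 and 2.38. H2-Eb2 (2.43, adjusted p = 0.0129) lost the call without non-responder 6, at 1.52. The non-classical class I gene H2-M2 rose by 4.34 (SE 0.62, adjusted p = 0.000436), from 0.774 to 3.36 CPM in controls to 4.55 to 77.8 CPM, with no overlap.

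Nos2, Acod1, Fpr2, Ly6i, Clec4e, Clec4d and Chil3, which myeloid cells can express, were named for the size or spread of their change. They form no list together, although Nos2 and Chil3 are members of lists described below. Non-responder 6 had the top value in each, which naming genes by size or spread makes more likely. Nos2, the inducible nitric oxide synthase of activated macrophages, was at 1.27, 2.21, 2.43, 1.56 and 2.02 CPM in controls and 12.8, 2.72, 3.82, 29.5, 10.4 and 111 CPM in non-responders, without overlap (log2 fold change 3.91, SE 0.74, adjusted p = 0.00117). Acod1, which makes itaconate in activated macrophages, rose by 4.60 (SE 0.74, adjusted p = 0.00049), from 0.633 to 1.86 CPM in controls to 14.8, 1.99, 4.55, 19.7, 11.4 and 107 CPM. Every non-responder again exceeded every control. Fpr2, a formyl peptide receptor of phagocytes, rose by 4.07 with all 6 above every control.

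Ly6i, a Ly6 family surface protein of monocytes, had the highest log2 fold change among the genes named by size at a mean of at least 1 CPM, 6.00 (SE 1.05, adjusted p = 0.000722). Its levels were 0, 0.332, 0.391, 0.192 and 1.45 CPM in controls and 9.01, 1.99, 1.03, 19.6, 17.9 and 116 CPM in non-responders, with non-responder 3 below control 5. Clec4e and Clec4d, paired lectin receptors of myeloid cells, had log2 fold changes of 4.30 and 3.47. Without non-responder 6 these were 2.50, still called, and 1.79, not called. Chil3, a chitinase-like protein of macrophages, was at 247 CPM in non-responder 6, 9.47 in non-responder 4 and 0.562 to 1.46 CPM in the other 4, against 0.267 to 1.14 CPM in controls. Its log2 fold change of 5.87 (adjusted p = 0.0259) was 1.85 without non-responder 6 (adjusted p = 0.334), and the call was also lost without any of controls 1 to 4.

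In the macrophage list, 11 of 17 genes were called higher and 1 lower, with a median of 1.21, and 7 were called higher without non-responder 6 or without control 4. Positive log2 fold changes were found in 14 of the 17. The summed level of the list, Gpnmb included, was 3904 to 5999 CPM in controls. Non-responders had 4504, 3554, 3351, 6940, 4554 and 12043 CPM, with 2 tumours above every control and 2 below. Lyz2, lysozyme, was at 258, 319, 297, 220 and 481 CPM in controls and 689, 521, 487, 2257, 1385 and 6430 CPM in non-responders (log2 fold change 2.64, SE 0.57, adjusted p = 0.00278). The groups did not overlap, but non-responders 2 and 3 lay just above control 5. Aif1 and the scavenger receptor Msr1 rose by 1.65 and 1.61. The gene called lower was Gpnmb, which pigment cells also express, and it is described with the melanocyte genes. Alternatively activated macrophage genes had 2 of 13 called higher, Chil3 and the chemokine Ccl22 (1.75, adjusted p = 0.00892), or 1 without non-responder 6 or any of controls 1 to 4. The share called higher over all genes tested was 10.6%.

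Of 11 monocyte attracting chemokines and growth factors, 7 were called higher with a median of 0.98, but 3 without control 4 and 4 without non-responder 4 or non-responder 6. None of the 4 with the largest change held its call without each tumour in turn. Csf2 (2.37) lost it without control 4 or non-responder 6, Cx3cr1 (1.39, all 6 above every control) without controls 2 or 4 or non-responders 4 or 5, Ccl7 (1.23) without controls 2, 3 or 4 or non-responders 1, 4 or 6, and Ccr2 (1.19) without controls 1 to 4 or non-responders 4 or 6. Their adjusted p then reached 0.0734, 0.0752, 0.0801 and 0.0873.

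The 5 Fc gamma receptor genes, whose products let myeloid cells engage antibody-coated cells, were all called higher with a median of 1.39. Fcer1g, the shared signalling chain, rose by 1.39 (SE 0.32, adjusted p = 0.00491) and Fcgr2b, the inhibitory receptor, by 1.25 (SE 0.28, adjusted p = 0.00371), each with 5 tumours above every control. Fcgr3 (1.47) and Fcgr4 (1.40) were called in the main test but not without controls 1, 3 or 4 or non-responders 4 or 6 (adjusted p up to 0.0924 and 0.0937). The count for the list was 2 without any of those 3 controls and 3 without non-responder 4 or non-responder 6.

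Dendritic cell genes were higher in 7 of 12, with a median of 1.28, or in 5 without control 1 or control 4. Clec9a, a marker of cross-presenting dendritic cells, rose by 2.50, Itgax (CD11c) by 2.37 and Itgae (CD103) by 1.86. Xcr1 (1.52, adjusted p = 0.0347) lost the call without controls 1 to 4 or non-responders 4 to 6 (adjusted p up to 0.0984). Complement genes were higher in 11 of 13, with a median of 1.30, or in 6 without control 4 or non-responder 6 and 7 without control 1 or non-responder 4. C3, the central component, was at 40.7, 96.5, 74.5, 76.9 and 222 CPM in controls and 672, 202, 173, 1064, 503 and 3070 CPM in non-responders (log2 fold change 3.21, SE 0.64, adjusted p = 0.00153), with non-responders 2 and 3 below control 5. C1s1 and C1ra, proteases of the first component, rose by 2.10 and 2.09 and their inhibitor Serping1 by 2.05.

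Granulocyte lists were short, so their counts are small, and 10.6% of all genes tested were called higher. Of 8 neutrophil genes tested, 2 were called higher, Csf3r (2.11, SE 0.35, adjusted p = 0.000514) and Ltf (3.46, SE 0.83, adjusted p = 0.00657). The median log2 fold change was 0.98 over the neutrophil list and 1.88 over the eosinophil list, against 0.04 over all genes tested. The defining genes Ly6g, Camp, Elane, Mpo and Ngp were too low to be tested. Of 7 eosinophil genes tested, Ccr3 (2.93) and Prg2 (2.11) were called, but Ccr3 was lost without controls 2 or 4 or without non-responder 6, where it was 1.60. Prg2 was lost without any tumour but control 5 and non-responder 3 (adjusted p up to 0.135). The count for the list was 0 without control 2, control 4 or non-responder 6 and 1 without control 1 or non-responder 4. None of 8 mast cell genes was called, against 1 in the fit of the 11 tumours alone and 1 in limma on log2(RPKM + 1). The one with the smallest p, the tryptase Tpsb2, was at 9.83 to 23.2 CPM in controls and 23.5 to 35 CPM in non-responders (log2 fold change 0.97, adjusted p = 0.0858). It was called in the fit of the 11 tumours alone, in limma on log2(RPKM + 1) and on log2(RPKM + 0.1), and with protein-coding share as a covariate.

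Lymphoid organising factors were called higher in 6 of 9, with a median of 2.25. Lta and Ltb, the lymphotoxin chains that drive lymphoid structure, rose by 3.45 and 2.83 with no overlap between groups. Ltb was at 0.867, 2.1, 1.33, 1.45 and 3.52 CPM in controls and 11.7, 4.67, 4, 17, 14.4 and 26.2 CPM in non-responders. The chemokine Ccl21a (2.25, all 6 above every control) lost the call without controls 1, 3, 4 or 5 or non-responders 4 to 6, and the chemokine receptor Cxcr5 (2.28) without controls 1, 2 or 4 or non-responders 4 to 6 (adjusted p up to 0.0928 and 0.107). The list count was 3 without control 1, control 4, non-responder 4 or non-responder 5 and 4 without non-responder 6.

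B and plasma cell genes were called higher in 5 of 11 tested, with a median of 1.93, or in 3 without control 1 or control 4. Cd22, an inhibitory B cell receptor, rose by 2.29 and Tnfrsf13c, the BAFF receptor, by 1.93. Jchain, which joins secreted antibody units, was at 1, 1.47, 6.81, 2.03 and 2.22 CPM in controls and 13.5, 10.2, 11, 24.8, 23.1 and 23.4 CPM in non-responders. The groups did not overlap, yet its call (log2 fold change 2.71, adjusted p = 0.0257) was lost without controls 1, 2, 4 or 5 or non-responders 4 or 5 (adjusted p up to 0.0787).

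Part of the stromal genes rose. Of 17 collagen and fibroblast genes, 9 were called higher and 0 lower, with a median of 0.99. All 6 tumours exceeded every control in 6 of the 17, against 2.67% of all genes tested. The count called higher was 5 without control 1 and 6 without control 4 or non-responder 4. Col6a1, a chain of the microfibrillar collagen VI, was at 350, 463, 333, 308 and 447 CPM in controls and 555, 914, 515, 1152, 1267 and 1079 CPM in non-responders (log2 fold change 1.27, SE 0.22, adjusted p = 0.000605). Col6a2 rose by 1.30 and Thy1, which fibroblasts and T cells both express, by 1.48 (SE 0.25, adjusted p = 0.000596), and neither overlapped the controls. Col1a1, the main chain of fibrillar collagen, had a log2 fold change of 1.20 (adjusted p = 0.0305) that was no longer called without controls 1, 2 or 4 or non-responders 2, 4 or 5 (adjusted p up to 0.0977).

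Of 13 endothelial genes, 3 were called higher, with a median of 0.55, and 1 without control 4, non-responder 4 or non-responder 6. Icam1, an adhesion molecule for leukocytes, was at 7.17, 11.1, 12.8, 8.44 and 20.8 CPM in controls and 53.1, 22.9, 22, 65.3, 57.2 and 118 CPM in non-responders (log2 fold change 2.23, SE 0.37, adjusted p = 0.000551). All 6 lay above the controls. Vcam1 (1.21) was lost without controls 3 or 4 or non-responders 4 or 6, and the junction gene Cldn5 (1.24) without controls 1, 2, 4 or 5 or non-responders 1, 4, 5 or 6 (adjusted p up to 0.0682 and 0.14).

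Among 14 death ligands and receptors, 8 were called higher with a median of 0.94. Fas, the receptor of Fasl, rose by 1.92 with all 6 tumours above every control, and Zbp1, a sensor that can trigger necroptosis, by 1.85. Of 11 suppressive enzymes and cytokines, 4 were called higher, with a median of 0.95. Besides Nos2 and Ido1 these were Entpd1 (CD39), which rose by 1.49, and Tgfb1 (0.63, adjusted p = 0.0162), whose call was lost without control 1 or non-responder 5 (adjusted p up to 0.0657). The list count was 3 in those fits and 6 without non-responder 2 or non-responder 3.

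**Figure D4:**
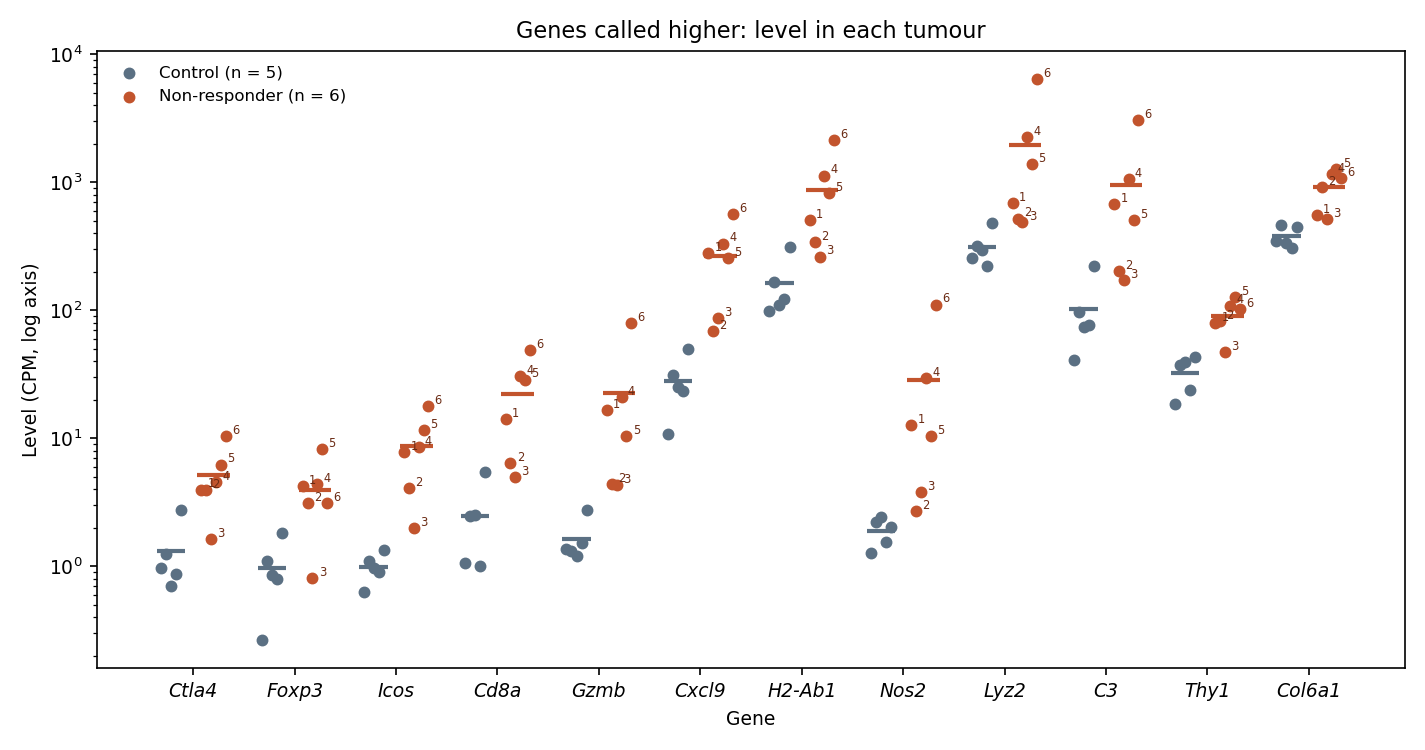
Levels in CPM (log axis) of 12 genes called higher, in 5 controls (slate blue) and 6 non-responders (orange, numbered by tumour), with short lines at the group means. Non-responder 6 was highest in all but Foxp3, Thy1 and Col6a1, and non-responder 3 was inside the control range for Ctla4, Foxp3, Cd8a, H2-Ab1 and C3.

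Far fewer genes fell, and the deepest falls were in low or moderately expressed genes outside the immune lists. Olfm2 (chr9:20667690-20746349), a secreted olfactomedin protein, was at 9.77, 12.3, 10.4, 10.4 and 7.4 CPM in controls and 0.811, 1.73, 2.49, 0.485, 1.5 and 0.344 CPM in non-responders. Every tumour lay below every control, by a wide margin (log2 fold change -3.03, SE 0.54, adjusted p = 0.000735). Efcab1, an EF-hand protein, fell by 2.56 (SE 0.45, adjusted p = 0.000723), from 1.66 to 6.2 CPM in controls to 0.191 to 1.05 CPM. The transcription factor Dmrta1 fell by 2.33 (SE 0.55, adjusted p = 0.00596), from 3.52 to 7.33 CPM to 0.458 to 2.43 CPM. In both, all 6 tumours were below every control.

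Other falls were set against uneven controls. Col2a1, the cartilage collagen, had the lowest log2 fold change among the genes named by size at a mean of at least 1 CPM, at -4.36 (SE 0.86, adjusted p = 0.00151), with 9.83, 2.28, 5.05, 48.7 and 84.8 CPM in controls and 1.38, 0.95, 2.11, 0.89, 3.2 and 0.229 CPM in non-responders. Non-responder 5 overlapped control 2. Kcnj13, an inward-rectifier potassium channel, fell by 4.06 (SE 0.83, adjusted p = 0.00187), with controls from 1.81 to 57.1 CPM and 4 tumours below every control. Diras2, a Ras-family GTPase, fell by 3.63 (SE 0.47, adjusted p = 0.000303). It was at 30.4, 6.26, 33.6, 62.9 and 38.8 CPM in controls and 1.7, 1.6, 7.39, 2.22, 1.62 and 2.03 CPM in non-responders, with non-responder 3 above control 2.

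Ttr, the thyroid hormone carrier transthyretin, fell by 3.48 and the metabolic enzyme gene Ogdhl by 2.24, both with all 6 tumours below every control, as did C87414 (-2.20). Aire, known for tissue antigen expression in the thymus, fell by 2.72 with 3 tumours below every control, and Cox8b, a cytochrome oxidase subunit, by 2.32 with 5. Pde4c, a cyclic AMP phosphodiesterase (-2.50, adjusted p = 0.0111), lost its call without control 4, at an adjusted p of 0.0511. Aass, a lysine-degrading enzyme (-2.39, adjusted p = 0.0144), lost it without control 5, at 0.0716. Gsta4, a glutathione transferase (-2.32, adjusted p = 0.0244, all 6 below every control), lost it without controls 1 or 4 or non-responders 4 to 6 (adjusted p up to 0.0915).

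Pigment and melanocyte genes were lower in most tumours, but most members did not pass the test. Of 17 genes, 2 were called lower and 0 higher, with a median log2 fold change of -1.35. Over all genes tested, 3.29% were called lower. The median shift of the list was -2.92, -3.30 and -3.52 in non-responders 4, 5 and 6, -1.54 in non-responder 1, -0.59 in non-responder 2 and 0.02 in non-responder 3, against -0.41 to 0.33 in controls. The summed level of the list was 12151 to 19690 CPM in controls and 4365, 8379, 15964, 1524, 1153 and 912 CPM in non-responders. In a fit of the 11 compared tumours alone 0 of them were called, without non-responder 3 there were 8, and limma on log2(RPKM + 1) called 11 with all tumours. With any of controls 1, 4 or 5 or non-responders 4 to 6 left out, 1 was called.

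Gpr143, a melanosome receptor, was at 27.2, 13.7, 14.3, 20.1 and 26.8 CPM in controls and 4.38, 8.29, 4.9, 0.405, 0.25 and 0.153 CPM in non-responders. All 6 lay below every control, and its call (log2 fold change -2.74, SE 0.84, adjusted p = 0.0304) was the one lost without those 6 tumours (adjusted p up to 0.073). Mitf, the master regulator of the melanocyte lineage, was at 556, 380, 337, 591 and 402 CPM in controls and 189, 293, 471, 117, 99.2 and 105 CPM in non-responders. Only non-responder 3 was within the control range (log2 fold change -1.09, SE 0.29, adjusted p = 0.0138).

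Tyr, the rate-limiting enzyme of melanin synthesis, was at 1108, 843, 723, 1018 and 831 CPM in controls and 302, 462, 612, 26.7, 11.4 and 18.8 CPM in non-responders. Every tumour was below every control, yet edgeR did not call the gene (log2 fold change -1.92, SE 0.93, adjusted p = 0.179). Limma on the deposited RPKM values did call it lower, in all 3 settings. Dct, another enzyme of melanin synthesis that was named with Tyr after their values were seen, had a log2 fold change of -1.67 (adjusted p = 0.311). Dct was at 4529 to 7872 CPM in controls and 1570, 3064, 6513, 200, 117 and 62.5 CPM in non-responders, with non-responder 3 inside the control range.

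Gpnmb, a glycoprotein of melanosomes and of macrophages, fell in every tumour. It was at 2812, 4268, 2141, 2803 and 2662 CPM in controls and 1902, 1128, 1415, 435, 274 and 400 CPM in non-responders (log2 fold change -1.67, SE 0.38, adjusted p = 0.00447). S100b, a calcium-binding protein of melanoma and Schwann cells, fell by 1.39 (SE 0.27, adjusted p = 0.00132), from 115 to 228 CPM to 36.6 to 105 CPM, also without overlap. In the Schwann cell list of 8 genes it was the only one called lower, and Mag, a myelin glycoprotein, the only one called higher (1.95, adjusted p = 0.00288).

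Of 13 neural crest and dedifferentiation genes, 3 were called higher and 0 lower, with a median of 0.44. Axl, a receptor kinase associated with dedifferentiated melanoma, rose by 1.03 (SE 0.21, adjusted p = 0.00209), from 165 to 244 CPM in controls to 403, 305, 176, 521, 519 and 592 CPM. Ngfr (1.12) and Egfr (0.88) were called as well, but Ngfr not without controls 1, 3 or 4 or non-responders 2, 4, 5 or 6, and Egfr not without controls 1 or 4 or non-responder 4 (adjusted p up to 0.113 and 0.06). The list count was then 1 without control 1, control 4 or non-responder 4 and 2 without non-responder 6.

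MAPK pathway output genes had 2 of 11 called lower, with a median of -0.51. Dusp6 and Dusp4, phosphatases that ERK signalling induces, had log2 fold changes of -0.63 (adjusted p = 0.0241) and -0.79 (adjusted p = 0.0331). Dusp6 was at 308, 308, 259, 314 and 304 CPM in controls and 213, 175, 289, 137, 151 and 189 CPM in non-responders, with non-responder 3 alone inside the control range. Dusp6 lost its call without controls 1 or 4 or non-responders 4 or 5, and Dusp4 without controls 1, 3 or 4 or non-responders 4 to 6 (adjusted p up to 0.0694 and 0.0885). The count for the list was 0 without control 1, control 4, non-responder 4 or non-responder 5, 1 without non-responder 6 and 6 without non-responder 3.

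Hypoxia and glycolysis genes had 3 of 15 called lower and 0 higher, with a median of -0.74. Car9, a carbonic anhydrase induced by hypoxia, fell by 2.08 (SE 0.54, adjusted p = 0.0115), from 52.1, 120, 57.3, 86.1 and 29.7 CPM in controls to 25.2, 22.5, 33.4, 4.13, 5.03 and 8.03 CPM. Pfkp and Pdk1, a glycolytic enzyme and a brake on pyruvate oxidation, had log2 fold changes of -0.81 and -0.79. Pfkp lost its call without any of controls 1 to 4 or non-responders 2, 4 or 5, and Pdk1 in the same fits and without non-responder 1 (adjusted p up to 0.0878 and 0.12). The list count was 10 without non-responder 3 and 1 without any of controls 1 to 4 or non-responders 2, 4 or 5.

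Proliferation genes were not called in either direction. All 16 DNA replication genes and all 16 mitosis genes had negative log2 fold changes, with medians of -0.29 and -0.36, and none passed the test. Non-responders 4, 5 and 6 had median shifts of -0.75, -0.68 and -0.74 for replication and -0.85, -0.65 and -0.95 for mitosis. Non-responder 3 was above every control in both, at 0.28 and 0.34. The genes with the smallest p were the helicase subunit Mcm6 (log2 fold change -0.41, adjusted p = 0.106) and the kinetochore protein Cenpf (-0.56, adjusted p = 0.209). Without non-responder 3, 5 replication and 2 mitosis genes were called lower.

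**Figure D5:**
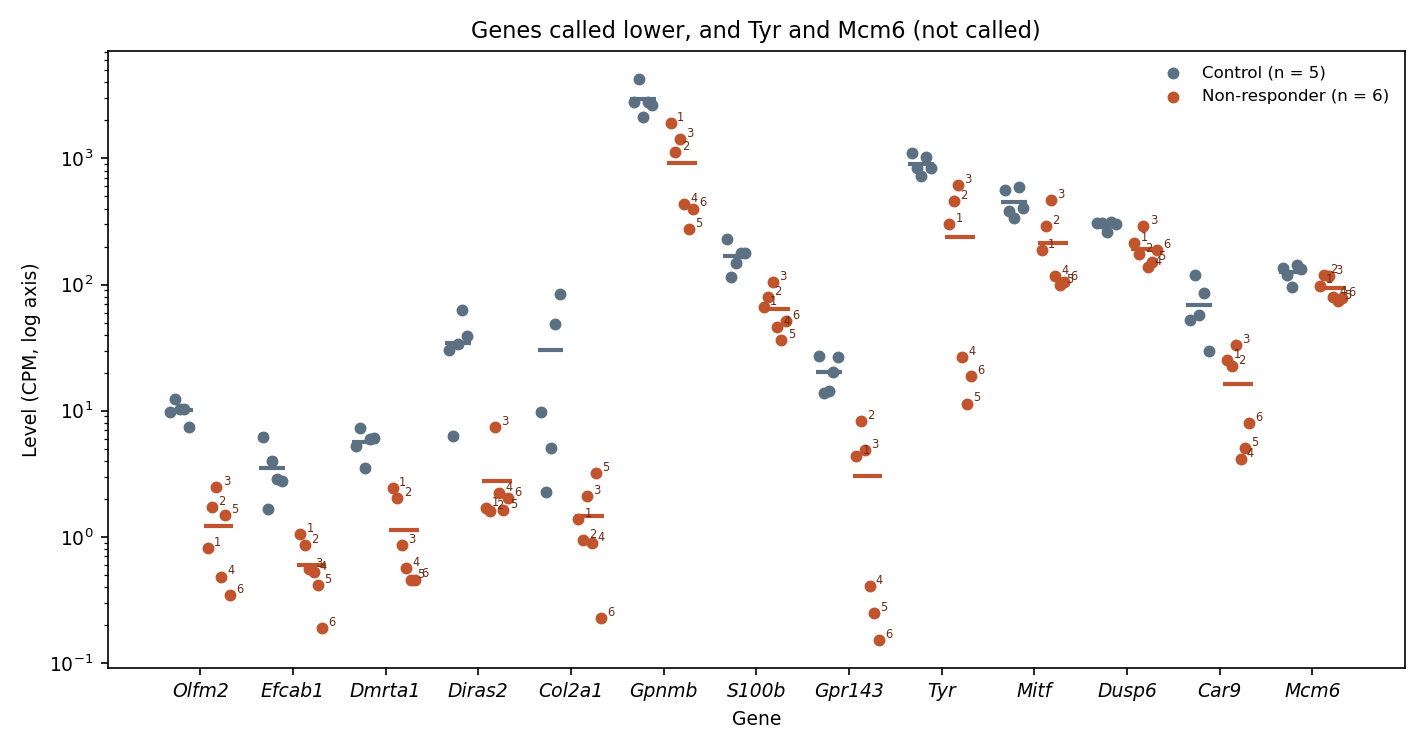
Levels in CPM (log axis) of 11 genes called lower and of Tyr and Mcm6, which were not called, in 5 controls (slate blue) and 6 non-responders (orange, numbered by tumour), with short lines at the group means. Olfm2, Efcab1, Dmrta1, Gpnmb, S100b, Gpr143 and Tyr did not overlap, and in Tyr and Gpr143 non-responders 4 to 6 stood far below the other 3.

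Markers of tissue next to the tumour varied inside both groups. Keratinocyte and hair genes summed to 16.1 to 2927 CPM in controls and 15 to 630 CPM in non-responders, and none of 14 was called. The hair gene Krtap9-1, with the smallest p, had a log2 fold change of -5.86 (adjusted p = 0.0893) and was at 0 in 2 controls and 5 non-responders. Skeletal muscle genes summed to 74 to 1493 CPM in controls and 166 to 1583 CPM in non-responders, with none of 12 called and Casq1 nearest to it (log2 fold change 0.96, adjusted p = 0.213). Of 7 adipocyte genes, only Lpl, lipoprotein lipase, was called (1.34, adjusted p = 0.00605), and macrophages express it too. The share called higher over all genes tested was 10.6%. The part of such tissue in the changes above was not tested.

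Stable tumours, which had the same antibody, were compared with non-responders directly to see which of these changes went further in them. Of all genes tested, 1276 (7.08%) were higher and 1417 (7.86%) lower in stable tumours. The interferon gamma response list had 9 of 29 genes higher and 0 lower, MHC class II 6 of 11, the macrophage list 8 of 17 with 1 lower, and T cell receptor genes 5 of 16. Cytotoxic effectors had 1 of 13 higher, Gzmc, and natural killer cell genes had none of 12 called. Their median differences, 1.11 and 0.94 on the log2 scale, were nonetheless no smaller than those of most lists above. Those were 0.74 for interferon gamma response, 1.09 for MHC class II, 0.90 for macrophage and 0.94 for T cell receptor genes. The counts of calls therefore do not rank the lists by the size of their shift. Ctla4 was higher in stable tumours by 1.34 on the log2 scale (adjusted p = 0.0127), while Cd8a differed by 0.49 (adjusted p = 0.518) and Foxp3 by 0.79 (adjusted p = 0.156).

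The pigment, mitosis and DNA replication lists were lower in stable tumours than in non-responders, while the hypoxia and glycolysis list differed by a median of 0.01. The cells behind these differences were not identified. Pigment and melanocyte genes were lower in 14 of 17 (median -3.67), mitosis genes in 16 of 16 (median -1.06) and DNA replication genes in 13 of 16 (median -0.76). Tyr was lower in stable tumours by 5.69 on the log2 scale (adjusted p = 0.00335) and Cenpf by 1.09 (adjusted p = 0.0129). None of 17 collagen and fibroblast genes, 0 of 14 keratinocyte genes and 1 of 25 type I interferon genes, lower, was called between these groups. Mast cell genes were lower in stable tumours in 4 of 8.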

How the data were processed

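Bulk RNA from 25 tumours was analysed. One deposited file holds expected counts (estimated read numbers, not normalized) covering 55450 genes, in which 5.64% of values were not whole, and another, also from the authors, holds deposited RPKM values covering 19522 symbols. Per the submitters' processing notes, bcl2fastq 2.17, Trimmomatic, STAR 2.5.1, RSEM 1.2.22 and build mm10 were involved, with no order given. The labels name a stranded total RNA kit but polyA RNA as the molecule.

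Counts were rounded, scaled by TMM and filtered with filterByExpr, leaving 18031 genes. edgeR 4.0.16 (R 4.3.3) fitted 4 group means over 25 tumours with robust quasi-likelihood F tests. All p-values were adjusted over the genes tested by Benjamini and Hochberg's method, with a threshold of 0.05. Per-tumour counts of values outside the control range used log2 CPM with a prior count of 2. The titles give each tumour its own mouse, and replicate numbers follow record order and pair none. Replicate libraries were distinct, with a smallest chi-square per gene of 25.8. In simulated data with 200 changed genes of 18031 for this comparison, the test found 83% of those changed 4-fold and 49% of those changed 2-fold, and 7.69% of its calls were false. The simulation gave all groups the same spread per gene and no other group differences. The data had 2500 called genes and, for genes called higher, a median SD of 0.72 in non-responders against 0.39 in controls. These rates therefore check the procedure and need not hold for the data.

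Members, gene lists and tests were chosen with earlier results of these data known. Named genes were Ctla4, Foxp3, the 12 highest and 12 lowest called protein-coding genes at a mean of at least 1 CPM (predicted genes, receptor segments and ribosomal protein genes left out), the 8 largest in each direction without overlap, the 4 most variable in each direction, and up to 4 called members per list by size (or the member with the smallest p). Some genes under this rule are not reported here. Sox10, Ifng, Tyr, Dct, Gbp7, Igtp, Irgm2, Tgtp2 and the genes with the widest gaps were added after their values were seen. Other settings tried were a fit with DESeq2 1.42.0, scaling by RLE, no filter, a stricter filter (a mean count of 50 and 1 CPM in 5 tumours), the 11 tumours alone, a 2-fold requirement, protein-coding genes only, protein-coding share as a covariate, limma 3.58.1 on log2(RPKM + 1) with and without a filter (RPKM of 1 in 5 tumours) and on log2(RPKM + 0.1), and each tumour left out.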

Additional observations from a re-analysis of the deposited data

Results flagged for a closer look

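Single tumours stood far from the rest of their group on the log2 CPM scale by Dixon's 95% test, which chance would trip in about 1 in 20 groups. With 156 genes named, flags of this kind would arise by chance, and they are listed as descriptions only. Genes named for their size or their spread over the non-responders are also more likely to be flagged. Non-responder 6 was high for Gzmd at 11.3 CPM, Gzmf at 8.33, Gzmg at 4.74, Prg2 at 0.764 and Il1b at 33.7. Non-responder 3 was high for Diras2 at 7.39 CPM and non-responder 1 for Krtap9-1 at 0.73. Control 5 was high for Gzmb at 2.74 CPM, Tbx21 at 1.55, Ccr8 at 0.673, Psmb9 at 40.6, Psmb8 at 84.1, Ccr2 at 86.2 and C1ra at 43.2. Control 3 was high for Cd40lg at 0.117 CPM and low for Dusp6 at 259, control 4 was high for Ido1 at 0.0274 CPM, and control 1 was low for Tgfb1 at 16.7 CPM. The flags for Cd40lg and Ido1 rest on 3 counts and 1 count, with 0 in the remaining controls.

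Other named genes differed between stable tumours and non-responders in the direct edgeR test (adjusted p under 0.05), given as stable minus non-responder on the log2 scale. Among T cell and costimulatory genes these were Ctla4 (1.34), Icos (1.25), Cd28 (1.17), Cd80 (1.10), Il2ra (1.10) and Gzmc (1.97). Among antigen presentation and lymphoid genes they were H2-Eb1 (1.33), H2-Ab1 (1.39), Cd74 (1.23), H2-M2 (1.83), Lta (1.61), Cd22 (1.18) and Jchain (2.12). Among myeloid genes they were Nos2 (2.43), Lyz2 (1.54), Msr1 (1.25), Ccl22 (1.26), Cxcl16 (1.57), Fcgr3 (1.25), Fcer1g (0.98), Fcgr2b (1.27), Itgax (1.33), Csf3r (1.26), Prg2 (1.90) and Il1b (2.14). Complement and other genes that were higher comprised C3 (1.91), C1s1 (1.22), C1ra (1.22), Fas (1.05), Entpd1 (1.23), Tgfb1 (0.52) and Slc39a4 (1.14).

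Genes lower in stable tumours than in non-responders were Dct (-6.59), Tyr (-5.69), Kcnj13 (-4.49), Ttr (-4.09), Gpr143 (-3.67), Gsta4 (-2.91), Olfm2 (-1.91), Scrg1 (-1.91), Car9 (-1.74), Mitf (-1.24), S100b (-1.15), Gpnmb (-1.10), Cenpf (-1.09), Dusp4 (-0.90), Sox10 (-0.71) and Mcm6 (-0.54).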

How the results depend on the processing

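Counts of called genes moved most. The total of 2500 was 210 at 2-fold and 1559 in a fit of the 11 tumours alone, and ranged from 1570 to 4237 with 1 tumour left out. The 1907 higher genes were 203 at 2-fold, 1068 with the 11 tumours alone, 1268 in limma on log2(RPKM + 1) and 1169 in that fit without a filter. The 593 lower genes were 1076 in DESeq2, 7 at 2-fold and 254 to 1596 with 1 tumour left out. The 218 list members called higher were 54 at 2-fold, and 172 to 243 with 1 tumour left out. Of the 1907 genes called higher, 371 had no overlap, or 350 with RLE factors. On the deposited RPKM scale it was 251 of the 1584 of these genes found there. Of the 593 called lower, 152 had no overlap, or 179 with RLE factors and 162 of 551 on the RPKM scale. The difference in small nucleolar RNA share, 0.00857 percentage points, ranged from -0.00359 (without non-responder 5) to 0.0232 (without non-responder 2) with 1 tumour left out, and the main difference did not pass the exact permutation test (p = 0.665). The cause of these shifts was not tested.

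Of the named genes none reversed, and 112 of the 148 that were called stayed called without each tumour in turn. At 2-fold 53 of 148 were called, in the 11 tumours alone 108 of 136, in DESeq2 147 of 148, with RLE factors 145 of 148, in limma on log2(RPKM + 1) 116 of 128 and with no filter 127 of 148. No paired analysis was possible because the replicate numbers follow record order and carry no label of their own. Few counts stood behind Cd40lg, Ido1, Gzmf and Gzmg in controls, which limits the precision of their folds.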

Other observations

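The genes below had the widest gaps between the groups and were picked for that, after their values were seen, among called protein-coding genes at 1 CPM or more. The cytokine Il1b was at 0.743 to 1.19 CPM in controls and 4.87, 3.37, 2.54, 5.54, 5.62 and 33.7 CPM in non-responders, a log2 gap of 1.03 between the lowest non-responder and the highest control (log2 fold change 3.22, edgeR adjusted p = 0.000743, or 2.13 without non-responder 6). Stap1, a signalling adaptor, was at 1 to 1.35 CPM in controls and 2.36 to 5.47 CPM in non-responders (log2 fold change 1.84, SE 0.29, adjusted p = 0.000462). Dtx1, a regulator of Notch signalling, rose by 2.68, the zinc transporter Slc39a4 by 3.12 and the matrix protein Fbln7 by 1.45. Hc, the gene of complement component C5, rose by 2.24 (adjusted p = 0.00118), from 5.05 to 9.31 CPM in controls to 15.3 to 52.1 CPM. All of these calls held without each tumour in turn.

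Downward, the widest gap was that of Olfm2, at 1.53 on the log2 scale. Dact2, a modulator of Wnt signalling, was at 13 to 18.8 CPM in controls and 7.87, 8.42, 4.47, 2.14, 3.2 and 3.75 CPM in non-responders (log2 fold change -1.67, SE 0.28, adjusted p = 0.000582). Aldoc, a glycolytic aldolase, was at 54.6 to 72.4 CPM in controls and 36.7, 21.3, 26.3, 6.43, 4.16 and 29.9 CPM in non-responders (log2 fold change -1.61, adjusted p = 0.0137). The anion transporter Slc26a7 fell by 1.96 (adjusted p = 0.0139). Scrg1 (-2.03, adjusted p = 0.0216) lost its call without control 4 or non-responders 4 to 6 (adjusted p up to 0.0718).

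The ratio of Cd8a to Foxp3 CPM was 4, 2.23, 2.91, 1.28 and 3 in controls and 3.35, 2.07, 6.11, 7.02, 3.49 and 15.8 in non-responders. The group means of the log2 ratio differed by 1.01 (two-sided exact permutation p = 0.0866 over 462 splits), so the difference was not larger than the spread by this test. Foxp3 was lowest in control 1, where few counts limit the ratio. The ratio was highest in non-responder 6, and non-responder 3, which was near the controls for both genes, had the third highest.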
